A study of Arabidopsis thaliana with 6 samples.

Results

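The CBL calcium sensors and CIPK kinases of *Arabidopsis thaliana* were followed in plants that carry a rice transcription factor. The family was defined by locus, CIPK1 to CIPK26 and CBL1 to CBL10, and a probe counted as a member when its transcript maps to such a locus. Of the 36 listed genes, 35 had a probe, which gave 45 member probes among the 43603 probes of the array, of which 34358 were matched to 25433 genes. All 26 CIPK genes were represented (34 probes), as were 9 of the 10 CBL genes (11 probes), and CBL3 (AT4G26570) was matched by no probe. The plants were OsbHLH068OE, the single transgenic line *35S::OsbHLH068* (9), in which the constitutive viral 35S promoter drives the rice bHLH gene *OsbHLH068*, and Col-0, the accession that served as its control. Total RNA came from aerial tissue of 17-day-old plants, with 3 biological replicates in each group and 1 Cy3-labeled array for each. The study asked what the rice factor alters in Arabidopsis in connection with salt stress and flowering time, and no salt treatment is named for these arrays. The rice transgene itself was not analysed here, so the labels lack that check, and the results rest on 1 line.

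CBL proteins are calcineurin B-like calcium sensors that bind calcium through EF hands and tether a partner kinase to the plasma membrane or the vacuolar membrane. The partners, CIPKs, are serine/threonine kinases held inactive by their own NAF (FISL) domain until a CBL binds it. Such pairs act on ion transporters. CBL4 (SOS3) with CIPK24 (SOS2) activates the sodium/proton antiporter SOS1 in roots, CBL10 takes the place of CBL4 mainly in shoots, and CBL1 or CBL9 with CIPK23 acts on the potassium channel AKT1 and the nitrate transporter NRT1.1. CIPKs are also called SnRK3 kinases, and the genes fall into an intron-rich and an intron-poor clade.

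Signals are log2 spot intensities after background correction and quantile normalization, so a difference of 1 is a 2-fold change, and levels are not compared between probes. Between 70.9% and 74.0% of spots were well above background on the OsbHLH068OE arrays, against 72.4% to 73.2% on the Col-0 arrays. The number of arrays limits the precision. The arrays lay on 2 slides, slide 1 holding replicate 1 of either group and slide 2 holding the other replicates, so a difference can be read within each slide. All 34 probes of 4 leaf genes were well above background. The brightest probes of these genes summed to a log2 signal of 19.86 to 19.94 in OsbHLH068OE and 19.85 to 19.98 in Col-0. Because quantile normalization gives all arrays the same highest values, these sums of bright probes cannot show whether leaf content was equal. Of 9 probes of 8 root genes, 2 were above background on every array, and the root hair genes EXPA7 and EXPA18 were above it on none. The summed log2 signal of the brightest probes of 6 floral genes (8 probes) was 12.21 to 12.78 in OsbHLH068OE and 12.56 to 13.20 in Col-0. By brightest probe, 4 of these genes were lower and 2 higher in OsbHLH068OE. Both probes of the floral organ gene SEP3 were lower (−0.78 and −0.91 on the log2 scale). AP1, PI and MS2 gave −0.26, −0.26 and −0.31. The probes of the floral organ gene AG gave 0.55 and 0.53, and AP3 gave 0.005. The part of floral tissue in the results below was not tested. In such bulk tissue, fewer cells of a type and less RNA per cell cannot be told apart.

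Few members of the family changed by more than 2-fold. The thresholds for a differentially expressed probe (DEP) follow the published methods, with the moderated P of limma in place of the test named there. A probe was a DEP when it changed by more than 1 on the log2 scale, up or down, and its unadjusted P in limma was under 0.05. By this rule 1 member probe rose in OsbHLH068OE (CIPK5) and 1 fell (CIPK4), where 0.385% of all probes rose and 0.784% fell. The same 2 member probes had a Benjamini-Hochberg adjusted P under 0.05, which 0.534% of all probes had. At an unadjusted P under 0.05 in limma, 6 member probes were higher (13.3%) and 8 were lower (17.8%) in OsbHLH068OE, where 11.0% of all probes were higher and 8.80% lower. Of the 8 lower probes, 3 belong to CIPK3. In 18 member probes (40%) the arrays of OsbHLH068OE and Col-0 did not overlap, as was so for 27.0% of all probes. For such a probe the two-sided exact permutation test gave P = 0.1, the smallest value that 3 arrays against 3 allow.

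Of the 14 probes past the unadjusted threshold, 13 belong to the kinases and 1 to the sensors. Of the 34 CIPK probes, 5 were higher and 8 lower at an unadjusted P under 0.05 in limma (14.7% and 23.5%, beside 11.0% and 8.80% of all probes). Of the 11 CBL probes, 1 (9.09%) was higher and 0 were lower at the same threshold, and 0 had an adjusted P under 0.05 in limma. The difference between the kinases and the sensors was not itself tested. Taking for each gene its brightest probe, the median log2 fold change was −0.04 over the 26 CIPK genes and −0.01 over the 9 CBL genes, beside 0.02 over all probes. The 8 CIPK genes listed here as intron-rich (12 probes) had 1 higher and 5 lower probes at that threshold (8.33% and 41.7%) and a median of −0.05. The 5 lower probes belong to 3 genes, which are CIPK3 with 3 probes, CIPK9 and CIPK17. The 18 intron-poor genes (22 probes) had 4 higher and 3 lower probes (18.2% and 13.6%) and a median of 0.02. The difference between the clades was not tested. Of the 45 member probes, 35 differed by less than 0.5 in either direction, and the same count was not made over all probes.

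**Figure D1:**
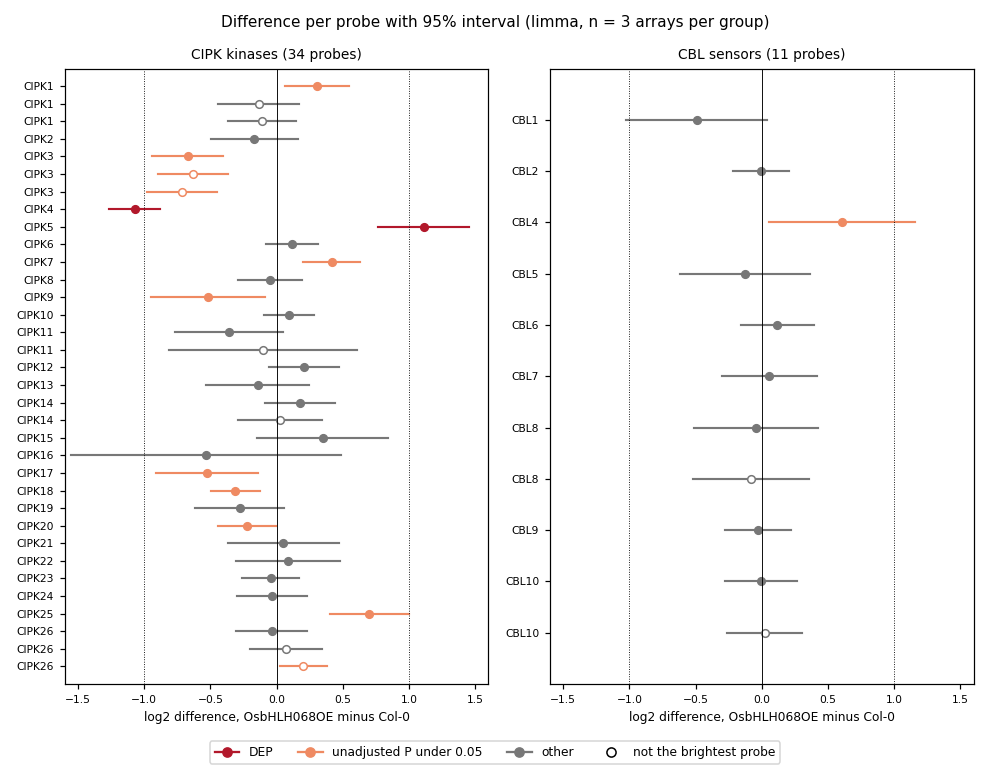
Log2 difference, OsbHLH068OE minus Col-0, of every member probe (points) with its 95% interval from limma (lines), for 34 CIPK probes and 11 CBL probes, 3 arrays per group. Open points are probes other than the brightest of their gene, and the dotted lines mark 2-fold. CIPK5 at 1.11 and CIPK4 at −1.07 are the DEPs.

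CIPK4 (AT4G14580), an intron-poor kinase, fell in OsbHLH068OE. Its log2 signal was 8.72, 8.68 and 8.82 on the 3 OsbHLH068OE arrays and 9.77, 9.82 and 9.85 on the 3 Col-0 arrays. The groups were far apart, with every OsbHLH068OE array about 1 log2 unit below every Col-0 array and little spread inside either group. The means were 8.74 ± 0.073 in OsbHLH068OE and 9.81 ± 0.040 in Col-0 (SD, n = 3 each), which makes a log2 fold change of −1.07 ± 0.078 (SE; limma, adjusted P = 0.0279). The difference was −1.05 on slide 1 and −1.08 on slide 2. CIPK4 lay close to the 2-fold line. A normexp offset of 50 brought it to −0.99, which ended its call as a DEP and left its adjusted P in limma at 0.00332.

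CIPK5 (AT5G10930), also of the intron-poor clade, moved the other way. Its log2 signal was 11.28, 11.08 and 11.47 in OsbHLH068OE and 10.06, 10.08 and 10.37 in Col-0. All OsbHLH068OE arrays were above all Col-0 arrays, with the gap between the groups wider than the range within either. The means were 11.28 ± 0.195 in OsbHLH068OE and 10.17 ± 0.174 in Col-0 (SD, n = 3 each), and CIPK5 rose by 1.11 ± 0.140 (SE) on the log2 scale, or 2.16-fold (limma, adjusted P = 0.0468). On slide 1 the difference was 1.22 and on slide 2 it was 1.05. Leaving out any array but Col-0 replicate 1 took the adjusted P of both CIPK4 and CIPK5 above 0.05 in limma, while both remained DEPs without each array in turn.

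CIPK4 and CIPK5 are read by 1 oligonucleotide each, so their probes are shown as the sequences that carry these calls. Each is a 60-base stretch of the coding strand, printed 5′ to 3′ from the probe annotation supplied with the study, and capitals mark the longest run that the 2 probes share.
CIPK4: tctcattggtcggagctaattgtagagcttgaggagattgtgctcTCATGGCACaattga
CIPK5: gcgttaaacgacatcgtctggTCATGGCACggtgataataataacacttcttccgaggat
The annotation places the CIPK4 probe at chr4:8367887-8367946 and the CIPK5 probe at chr5:3445575-3445634, both on the minus strand, and names no genome build beside these positions. The shared run is 9 bases long and starts at base 46 of the CIPK4 probe and base 22 of the CIPK5 probe. Read from the first base, neither probe holds a stop codon before its last codon, and the CIPK4 probe ends in tga, a stop codon.

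CIPK3 (AT2G26980), an intron-rich kinase known for roles in abscisic acid and cold responses, was lower in OsbHLH068OE with each of its 3 probes. The brightest gave log2 signals of 12.78, 12.73 and 12.79 in OsbHLH068OE and 13.65, 13.30 and 13.37 in Col-0. The OsbHLH068OE arrays were nearly level and all below the Col-0 arrays, among which replicate 1 stood highest. This is a log2 fold change of −0.67 ± 0.110 (SE; limma, adjusted P = 0.0718), and the other probes gave −0.63 and −0.72 (adjusted P = 0.0787 and 0.0628 in limma). These probes read transcripts of 1 gene and are not replicates of each other. The difference was −0.87 on slide 1 and −0.58 on slide 2, and with slide as a block the adjusted P of this probe in limma was 0.0463, against 0.0531 and 0.0518 for the others.

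CIPK9 and CIPK17, of the same intron-rich clade, were also lower by more than 0.5 on the log2 scale at an unadjusted P under 0.05. CIPK9 (AT1G01140), which is known for potassium homeostasis, had log2 signals of 13.69, 13.42 and 13.46 in OsbHLH068OE and 13.81, 14.40 and 13.91 in Col-0. The groups did not overlap, but OsbHLH068OE replicate 1 and Col-0 replicate 1, which shared a slide, were close together, and Col-0 replicate 2 stood above the rest. The log2 fold change was −0.52 ± 0.176 (SE; limma, adjusted P = 0.199), with −0.12 on slide 1 and −0.72 on slide 2. Its unadjusted P was 0.0772 in limma without OsbHLH068OE replicate 2 and 0.0724 without OsbHLH068OE replicate 3, and without Col-0 replicate 2 its log2 fold change was −0.34. CIPK17 (AT1G48260) had log2 signals of 7.65, 7.88 and 7.95 in OsbHLH068OE and 8.11, 8.33 and 8.63 in Col-0, again without overlap. Its log2 fold change was −0.53 ± 0.158 (SE; limma, adjusted P = 0.166), and the difference was −0.45 on slide 1 and −0.57 on slide 2.

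CIPK25 (AT5G25110), an intron-poor kinase, was higher in OsbHLH068OE. Its log2 signal was 6.49, 6.24 and 6.22 in OsbHLH068OE and 5.80, 5.50 and 5.55 in Col-0. The lowest OsbHLH068OE array lay above the highest Col-0 array. CIPK25 had a log2 fold change of 0.70 ± 0.123 (SE; limma, adjusted P = 0.0799). The difference was 0.69 on slide 1 and 0.70 on slide 2, with an adjusted P of 0.0386 in limma when slide was a block. The probe was dim, and its log2 fold change was 0.39 with no background correction (adjusted P = 0.0439 in limma).

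**Figure D2:**
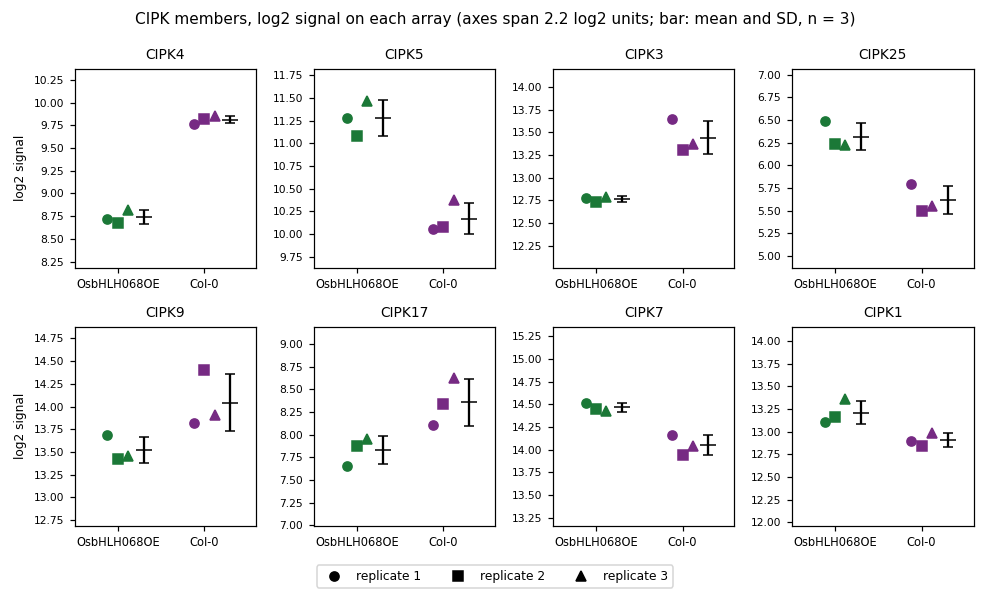
Log2 signal of 8 CIPK genes (brightest probe of each) on every array, OsbHLH068OE in green and Col-0 in purple, with marker shape for the replicate and the mean and SD of each group in black (n = 3). Every vertical axis spans the same 2.2 log2 units. The 8 genes were taken from those whose brightest probe had an unadjusted P under 0.05 in limma. That their groups do not overlap follows largely from this choice, and the same holds for 27.0% of all probes. The other probes of CIPK1, not shown, have overlapping groups.

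Other CIPK genes past the unadjusted threshold differed by less than 0.5. CIPK7 (AT3G23000), an intron-poor kinase tied to cold responses, had log2 signals of 14.52, 14.45 and 14.43 in OsbHLH068OE and 14.16, 13.94 and 14.04 in Col-0. The groups did not overlap, and the log2 fold change was 0.42 ± 0.088 (SE; limma, adjusted P = 0.105). CIPK18 (AT1G29230) had a log2 fold change of −0.31 (adjusted P = 0.125 in limma). Its probe was dim, with mean log2 signals of 4.98 in OsbHLH068OE and 5.30 in Col-0, though well above background on every array. CIPK20 (AT5G45820), a kinase studied in abscisic acid responses, had −0.22 (adjusted P = 0.245 in limma). Both were past the unadjusted threshold and neither had overlapping groups. With slide as a block the unadjusted P of CIPK20 was 0.0529 in limma.

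The probes of a few kinases did not give the same answer. CIPK1 (AT3G17510), a partner of CBL1 and CBL9 in abscisic acid and osmotic responses, has 3 probes. The brightest read 13.11, 13.16 and 13.36 in OsbHLH068OE and 12.90, 12.84 and 12.98 in Col-0, which is a difference of 0.30 past the unadjusted threshold (adjusted P = 0.184 in limma). The others gave −0.14 and −0.11, with overlapping groups and 95% intervals of −0.45 to 0.17 and −0.37 to 0.15. CIPK26 (AT5G21326), which is known to act on the NADPH oxidase RBOHF, gave −0.04 and 0.07 with its brighter probes and 0.20 (adjusted P = 0.215 in limma) with the third. CIPK11 (AT2G30360), a kinase that restrains the plasma membrane proton pump, gave −0.36 (95% interval −0.77 to 0.05) with its brighter probe. Its dimmer probe differed by 0.67 on slide 1 and by −0.49 on slide 2. The 2 probes of CIPK14 gave 0.17 and 0.03.

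No probe reached an unadjusted P under 0.05 in limma in 15 of the 26 CIPK genes, CIPK11 and CIPK14 among them. A count by gene was not made over the whole array, where 19.8% of probes passed that threshold. With slide as a block, CIPK15 (0.014) and CIPK16 (0.0229) came under that threshold, with adjusted P of 0.104 and 0.129 in limma. CIPK2, CIPK6, CIPK10, CIPK12, CIPK21 and CIPK22 gave log2 fold changes of −0.17 to 0.20. CIPK16 (AT2G25090), a kinase linked to sodium exclusion, had the widest interval of the family. Its log2 signal was 6.21, 6.83 and 7.36 in OsbHLH068OE and 6.58, 7.66 and 7.78 in Col-0, so that the replicates of each group spread over more than 1 log2 unit. The log2 fold change was −0.54 with a 95% interval of −1.55 to 0.48. CIPK15 (AT5G01810), known for repressing abscisic acid responses and ammonium transport, gave 0.35 (95% interval −0.15 to 0.84), and its chromosomal neighbor CIPK14 (AT5G01820) gave 0.17 with its brighter probe. The neighbors CIPK19 and CIPK20 gave −0.28 and −0.22. CIPK13 was not well above background on any array, and its log2 signals of 3.88 to 4.32 in OsbHLH068OE and 4.10 to 4.50 in Col-0 are a bound rather than a level.

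The salt module, named whatever its values, had 1 of its 4 genes past the unadjusted threshold, where 19.8% of all probes were past it. CBL4 (AT5G24270), the sensor SOS3, had log2 signals of 8.56, 8.78 and 8.60 in OsbHLH068OE and 7.75, 7.83 and 8.55 in Col-0. The groups did not overlap, although Col-0 replicate 3 lay next to the OsbHLH068OE arrays and apart from the other Col-0 arrays. The log2 fold change was 0.61 ± 0.226 (SE; limma, adjusted P = 0.224), with 0.81 on slide 1 and 0.50 on slide 2. When any single array except Col-0 replicate 3 was left out, its unadjusted P in limma was 0.0605 to 0.107, so this call held in 1 of the 6 sets of 5 arrays.

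The other genes of the salt module overlapped between the groups. CIPK24 (AT5G35410), the kinase SOS2, read 8.54, 8.49 and 8.48 in OsbHLH068OE and 8.34, 8.67 and 8.61 in Col-0. The OsbHLH068OE arrays lay inside the range of the Col-0 arrays, and the log2 fold change was −0.04 (95% interval −0.30 to 0.23). CBL10 (AT4G33000), the shoot sensor of the salt response, read 11.04, 11.17 and 11.25 in OsbHLH068OE and 11.27, 10.98 and 11.22 in Col-0, with 95% intervals of −0.28 to 0.27 for this probe and −0.26 to 0.31 for its second probe. CIPK8 (AT4G24400), a kinase of nitrate signaling that can also pair with CBL10, read 10.66 to 10.81 in OsbHLH068OE and 10.64 to 10.89 in Col-0 (95% interval −0.29 to 0.19). These intervals leave room for changes of up to about 0.3 on the log2 scale.

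In the potassium and nitrate module, CBL1 alone had groups that did not overlap, where 27.0% of all probes had such groups. CBL1 (AT4G17615), a plasma membrane sensor, read 10.28, 10.19 and 10.08 in OsbHLH068OE and 10.46, 11.16 and 10.39 in Col-0. Col-0 replicate 2 stood well above the other Col-0 arrays, as it did for CIPK9. The CBL1 difference of −0.49 ± 0.217 on the log2 scale (SE; limma, adjusted P = 0.277) became −0.25 without Col-0 replicate 2. CBL9 (AT5G47100), the close homolog of CBL1, read 9.88, 9.82 and 9.84 in OsbHLH068OE and 10.04, 9.73 and 9.83 in Col-0, with overlapping groups and a 95% interval of −0.27 to 0.22. CIPK23 (AT1G30270), their partner kinase, read 9.32, 9.42 and 9.49 in OsbHLH068OE and 9.47, 9.53 and 9.37 in Col-0 (95% interval −0.26 to 0.17). The groups of CIPK23 overlapped as well.

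**Figure D3:**
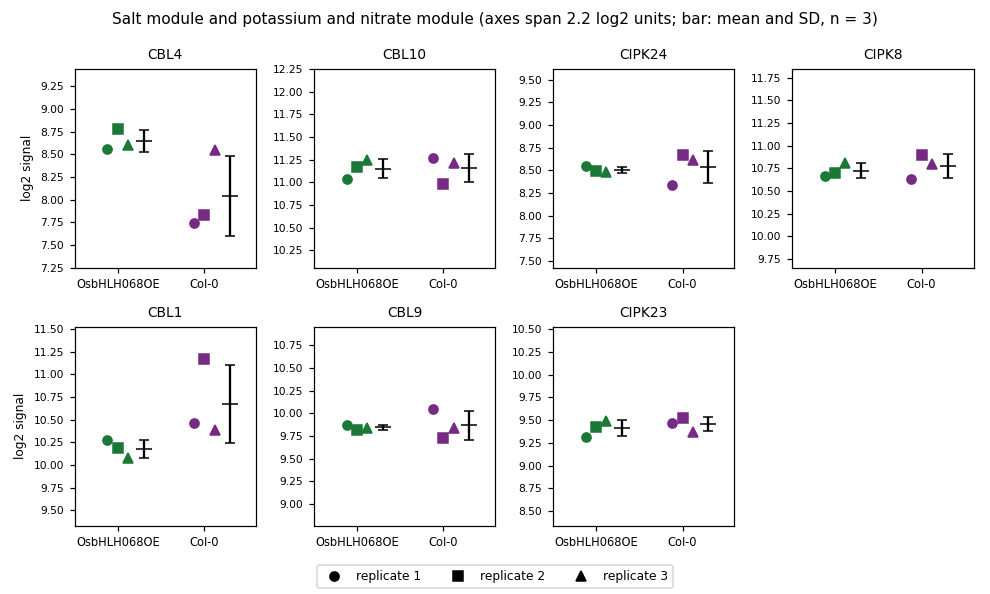
Log2 signal of the salt module (CBL4, CBL10, CIPK24 and CIPK8) and of the potassium and nitrate module (CBL1, CBL9 and CIPK23) on every array, OsbHLH068OE in green and Col-0 in purple, with marker shape for the replicate and the mean and SD of each group in black (n = 3). CBL4 and CBL1 have groups that do not overlap, as do 27.0% of all probes. Col-0 replicate 3 of CBL4 and Col-0 replicate 2 of CBL1 lie apart from the other Col-0 arrays.

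The other sensors gave small values. CBL2 (AT5G55990), a vacuolar membrane sensor, had a log2 fold change of −0.01 (95% interval −0.22 to 0.21), and CBL7 (AT4G26560), which lies beside the unmatched CBL3 on its chromosome, had 0.06 (−0.30 to 0.42). CBL5, CBL6 and CBL8 were at the limit of detection. CBL5 was well above background on 1 OsbHLH068OE array and 2 Col-0 arrays, CBL6 on 1 array of each group, and the 2 probes of CBL8 on none.

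The proteins on which CIPKs act were described from a list of 19 genes (27 probes) of transporters, channels, proton pumps, the oxidase RBOHF and transcription factors. At an unadjusted P under 0.05 in limma, 6 of these probes were higher and 1 was lower in OsbHLH068OE (22.2% and 3.7%, beside 11.0% and 8.80% of all probes). NRT1.1 and the proton pump AHA2 gave 2 of the higher probes each, and the median over the brightest probes was −0.03. The ammonium transporter AMT1;2 (AT1G64780) rose, with log2 signals of 10.60, 10.68 and 10.82 in OsbHLH068OE and 9.66, 9.58 and 9.72 in Col-0. All OsbHLH068OE arrays were above all Col-0 arrays, and the log2 fold change was 1.05 ± 0.092 (SE; limma, adjusted P = 0.0279). Without OsbHLH068OE replicate 3 it was 0.99, short of the threshold for a DEP, and the adjusted P in limma was 0.0776 to 0.188 when any single array except Col-0 replicate 1 was left out. The nitrate transporter NRT1.1 (AT1G12110), a target of CIPK23, read 13.44, 13.42 and 12.96 in OsbHLH068OE and 12.86, 12.47 and 12.62 in Col-0, without overlap, and its probes gave 0.62 and 0.63 (adjusted P = 0.151 and 0.117 in limma). SOS1 (AT2G01980), the antiporter under CIPK24, gave −0.08 (95% interval −0.38 to 0.21). The potassium channel AKT1 (AT2G26650) gave −0.27 (95% interval −0.67 to 0.13), and it was −0.14 without OsbHLH068OE replicate 1 and −0.40 without Col-0 replicate 1. Its unadjusted P in limma was under 0.05 without that Col-0 array (0.041) and with slide as a block (0.00753). The high-affinity potassium transporter HAK5 was not well above background on any array.

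A further list holds partners that act on the kinases or sensors themselves. Of the 9 listed genes, 8 had probes (13 probes), and at an unadjusted P under 0.05 in limma 2 probes were higher and 7 lower in OsbHLH068OE (15.4% and 53.8%, beside 11.0% and 8.80% of all probes). Of the lower ones 3 belong to PP2CA, and both higher ones to GIGANTEA. PP2CA (AT3G11410), a clade A protein phosphatase 2C that docks on CIPKs and counteracts them on AKT1, read 9.42, 9.36 and 9.40 in OsbHLH068OE and 10.62, 10.41 and 10.16 in Col-0 with its dimmest probe. The groups were well apart, and this probe fell by 1.01 on the log2 scale (limma, adjusted P = 0.0479). The other PP2CA probes gave −0.99 and −0.99 (adjusted P = 0.0669 and 0.0716 in limma), just short of 2-fold. The DEP probe had a log2 fold change of −0.89 without Col-0 replicate 1, −0.99 without OsbHLH068OE replicate 2 and −0.999 without Col-0 replicate 2, each short of the threshold for a DEP. It was also short with a normexp offset of 50 (−0.955) and with no background correction (−0.958). The adjusted P of this probe in limma was 0.0932 to 0.233 when any single array except Col-0 replicate 1 was left out. Among the 10 SnRK2 kinases (12 probes), the neighboring branch of the SnRK family, 2 probes were higher and 2 lower at an unadjusted P under 0.05 in limma. These are 16.7% each, beside 11.0% and 8.80% of all probes. The list had 0 DEPs and a lowest adjusted P of 0.135 in limma.

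**Figure D4:**
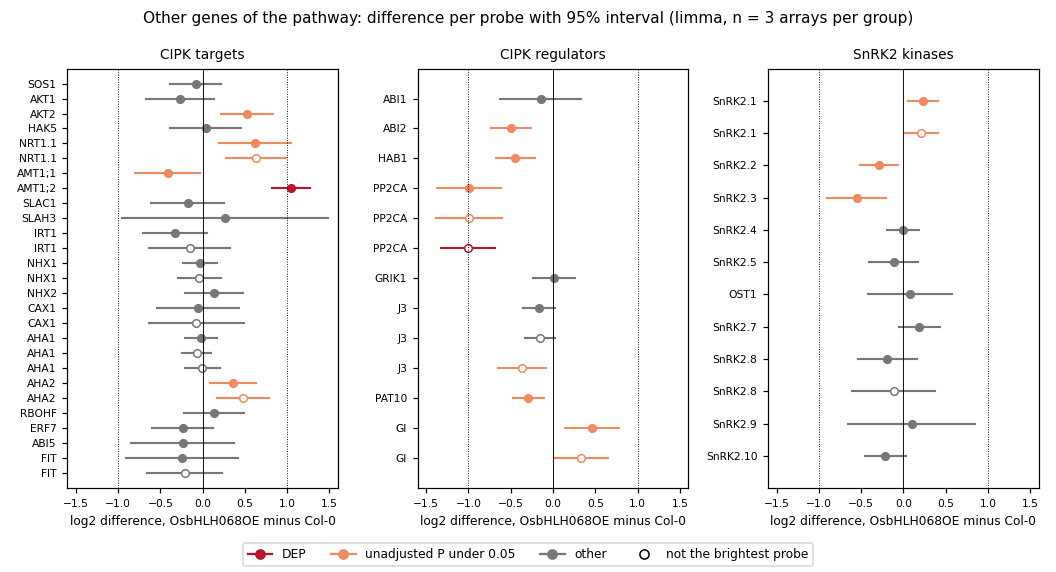
Log2 difference, OsbHLH068OE minus Col-0, with 95% interval (limma, 3 arrays per group) for probes of 19 CIPK targets, 8 CIPK regulators and 10 SnRK2 kinases. Open points are probes other than the brightest of their gene, and the dotted lines mark 2-fold. AMT1;2 at 1.05 and a PP2CA probe at −1.01 are the DEPs.

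Members that passed the unadjusted threshold kept their direction on both slides. All 14 such probes had the same sign on slide 1, with 1 array per group, and on slide 2, with 2 arrays per group. Among all 45 member probes, 29 had the same sign on both slides. The slides enter the differences from all 6 arrays, so this count describes their evenness and is not a separate test. CIPK4 and CIPK25 were nearly equal on the slides. CIPK9, CBL1, CIPK19 (−0.01 on slide 1 and −0.41 on slide 2) and the brighter probe of CIPK11 (−0.04 on slide 1 and −0.52 on slide 2) differed mainly on slide 2.

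**Figure D5:**
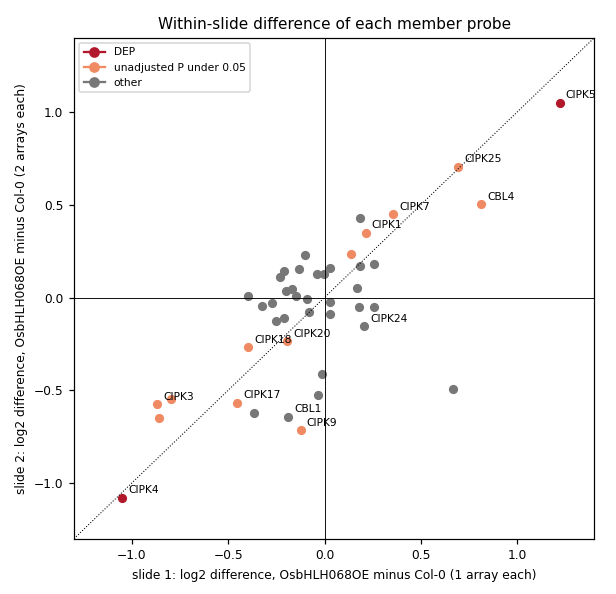
Log2 difference, OsbHLH068OE minus Col-0, of each of the 45 member probes on slide 1 (horizontal axis, 1 array per group) and slide 2 (vertical axis, 2 arrays per group), with the dotted line where both are equal. CIPK5 and CIPK4 lie at the ends of the line, and the gray points that did not pass an unadjusted P of 0.05 gather around the origin many of them with opposite signs on the slides.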

How the data were processed

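RNA of aerial tissue was hybridized to 1-color Agilent Arabidopsis V4 arrays, 3 of OsbHLH068OE and 3 of Col-0, grouped by the genotype in the sample labels. The methods state that labeled cRNA was pooled before hybridization without saying what was pooled. The authors deposited scanner intensity values from Agilent Feature Extraction 10.7.1.1 at default settings, of which the medians of spot and background and the background-subtracted processed signal were used. They also deposited log2 values for all arrays, which their methods derive with limma (normexp, then quantile), and the same steps done again came within 5e-09 of them. The median of these deposited log2 values was 8.096 to 8.106 on each array.

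Here limma 3.58.1 in R 4.3.3 corrected the background by normexp over all spots at an offset of 0, followed by log2 with no pseudocount and quantile normalization without control spots. Spots marked as outliers were left out, none of them a member's, and repeat spots were averaged. Member values differed from the deposited table by at most 0.0229. All 43603 probes were fitted with lmFit and eBayes, and P-values were adjusted by Benjamini-Hochberg over all of them. The fit was tested on simulated data. Probes were matched by transcript accession to a RefSeq table of TAIR10.1 that gave a gene for 34358 probes, and no coordinate was taken from it. The authors' own comparison columns (fold changes and P-values) in the supplementary tables were not used.

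Named in full were members with a DEP probe or an adjusted P under 0.05, members whose brightest probe had an unadjusted P under 0.05 and a log2 fold change beyond 0.5, and the salt and the potassium and nitrate modules whatever their values. Of the targets and regulators, genes with such a DEP or adjusted P, SOS1, AKT1, HAK5 and NRT1.1 were named, and others in the text were chosen after their values were seen. The members and lists were chosen with earlier results of these data known. P-values measure the spread between the 3 samples of each group, which are labeled as biological replicates. The alternatives were other background corrections, scalings, tests, filters on dim probes and fold thresholds, a block for slide or for replicate number, each array left out in turn, and, added after seeing the data, slide 2 alone.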

Additional observations from a re-analysis of the deposited data

How the results depend on the processing

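The 2 DEPs among the members became 1 with a normexp offset of 50 and 1 with no background correction, since CIPK4 then lay at −0.991 and −0.997. With a log2 threshold of 0.5 they became 9, and no count over all probes was made there. The DEPs stayed 2 in every other setting, leaving out each array included (2 to 2). The count of member probes with an adjusted P under 0.05 in limma, 2 as reported, was 7 with an offset of 50, 7 with no background correction, 7 with dim probes left out, 7 with an intensity trend and robust prior, and 4 with slide as a block, against 1 with the processed signal scaled to the 75th percentile, 1 with normexp values scaled so, 0 with the methods' t-test, 0 with replicate number as a replicate block and 0 on slide 2 alone. Leaving out 1 array gave 0 to 7, with 7 only without Col-0 replicate 1. The 7 probes were those of CIPK3, CIPK4, CIPK5, CIPK7 and CIPK25 in each of these settings. Over all probes the corresponding count was 233 in the main fit and 1 to 2726 elsewhere, apart from 0 with the methods' t-test. It was 1564 with an offset of 50 and 1520 with no background correction. The trend and robust prior gave 1380 and slide as a block 1015. With dim probes left out it was 1333 of 31272 probes, and without Col-0 replicate 1 it was 2726. The member count thus rose where the count over the whole array rose. DEPs over all probes numbered 510 in the main fit and 320 to 1055 elsewhere. These are counts of the fits made here and not the study's own count. Same-numbered samples correlated at 0.262, 0.0983 and 0.0128 in their deviations from the group means, so the numbers were not taken as pairs. Arrays of the 2 groups that shared a slide correlated at 0.0128 to 0.262, and those on different slides at −0.216 to −0.117. The main fit has no term for slide. With replicate number as a block the adjusted P in limma was 0.118 for both AMT1;2 and the PP2CA probe, and the unadjusted P of AKT1 was 0.0228.

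The number of member probes at an unadjusted P under 0.05 stayed within 1.5 times of 14 in every setting. Over all probes that number was 8634 in the main fit and 5561 to 13287 elsewhere. The median of the CIPK genes was −0.124 to 0.00462 without 1 array, lowest without Col-0 replicate 1, and that of the CBL genes −0.0752 to 0.053, so neither has a settled direction. Adjusted P in limma or the t-test ran from 0.00322 to 0.184 for CIPK4 and from 0.00854 to 0.208 for CIPK5. For 19 single genes, a threshold was followed under the alternatives. It was the DEP rule for CIPK4, CIPK5, AMT1;2 and the PP2CA probe, and an unadjusted P under 0.05 for the others. Of 342 values, 304 kept their direction and their side of it, and 20 lost and 7 gained it. A further 11 changed sign, past the threshold neither before nor after. Adjusted P did not enter these counts. The cause of these shifts was not tested. Members near background (CIPK13, CBL5, CBL6 and CBL8) are limited by their signal, as is the dim CIPK18.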

Other observations

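Several transporters and phosphatases around the kinases, chosen after their values were seen, differed at an unadjusted P under 0.05 in limma without passing the adjusted threshold. The phloem potassium channel AKT2 (AT4G22200), which CBL4 and CIPK6 bring to the plasma membrane, read 12.68, 12.80 and 13.12 in OsbHLH068OE and 12.37, 12.33 and 12.31 in Col-0, which differ by 0.53 on the log2 scale (adjusted P = 0.121 in limma). CIPK6 (AT4G30960) itself gave 0.12 (95% interval −0.08 to 0.31). The plasma membrane proton pump AHA2 gave 0.36 and 0.48 with its 2 probes, and 3 probes of the related pump AHA1 gave −0.07 to −0.002. The ammonium transporter AMT1;1 (AT4G13510) read 12.35, 12.66 and 12.77 in OsbHLH068OE and 12.79, 13.20 and 13.03 in Col-0, which differ by −0.41 on the log2 scale (adjusted P = 0.229 in limma), against the 1.05 of AMT1;2. The difference between these transporters was not tested.

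Besides PP2CA, the clade A phosphatases ABI2 and HAB1 gave −0.49 and −0.44 (adjusted P = 0.0941 and 0.104 in limma), with no overlap between the groups, and ABI1 gave −0.15 (95% interval −0.63 to 0.33). The palmitoyl transferase PAT10, which modifies vacuolar CBLs, gave −0.29 (adjusted P = 0.135 in limma). GIGANTEA, a clock and flowering protein that also holds CIPK24 back, gave 0.46 and 0.33 with its probes. The abscisic acid kinases SnRK2.2 and SnRK2.3 gave −0.29 and −0.55, and OST1 gave 0.07 (95% interval −0.42 to 0.57).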
